A study of Mus musculus with 12 samples.

Results

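Dnmt1, Dnmt3a, Dnmt3b, Dnmt3l, Uhrf1, Tet1, Tet2, Tet3 and Tdg write, keep or remove methyl groups on the cytosines of DNA. These 9 genes were listed by their function, with earlier results of these data known. Each was read from the probe set annotated to it alone. Of the 9, 8 had such a probe set, 1 each, among 22180 genes with one. The Tdg probe sets, 2 in number, also list Tdg pseudogenes, so no value is given for Tdg, the glycosylase that cuts oxidised methylcytosine out of DNA. The study profiled target genes of ERRb, the product of Esrrb and an orphan nuclear receptor, with whole-transcript arrays in K3, a line of mouse embryonic stem (ES) cells. The cells labelled KO/ERRb-wt carried an Esrrb knockout and had been transduced with a lentivirus expressing ERRb (clones 12-1 and 12-3). The KO/mock arrays came from knockout cells (clones 8-3 and 8-4) and the WT/mock arrays from wild-type cells (clones 5-2 and 5-5); what the mock step was is not spelled out in the labels. Each group held 4 arrays, from 2 clones with 2 arrays each that the labels call biological replicates. All groups were grown in serum-free N2B27 medium with the inhibitors CH99021, against GSK3, and PD0325901, against MEK, and with LIF. Before RNA was taken, all spent 3 days in N2B27 with both inhibitors and doxycycline. With 2 clones a group, a property of 1 clone and the effect of a genotype are hard to separate, and p-values measure the spread among these arrays, part of which may be technical.

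Cytosine methylation at CG dinucleotides is set by the de novo enzymes Dnmt3a and Dnmt3b, for which the catalytically inactive Dnmt3l acts as a cofactor. It is copied at replication by Dnmt1, which Uhrf1 guides to hemimethylated DNA. The Tet dioxygenases oxidise methylcytosine, and Tdg with base excision repair restores an unmethylated base. ES cells held in the 2 inhibitors are known for low genome-wide methylation and low Dnmt3b and Dnmt3l, while cells leaving the naive state gain both. DNA methylation itself was not measured here. Values are log2 expression, so a difference of 1 is 2-fold in the array signal. All adjusted p-values come from limma with Benjamini-Hochberg adjustment over 41345 probe sets, and a difference was called at an adjusted p under 0.05. The 3 comparisons share their arrays and are not independent of each other. These are bulk RNA samples, in which fewer cells of a type and less RNA per cell cannot be told apart.

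The Esrrb probe set did not follow the labels. It read 6.50 to 6.99 on the KO/ERRb-wt arrays, 7.41 to 8.00 on the KO/mock arrays and 7.38 to 7.39 on the WT/mock arrays. The KO/ERRb-wt arrays thus lay below the KO/mock arrays (-0.93 ± 0.13, SE; limma, adjusted p = 0.00436), and KO/mock differed from WT/mock by 0.28 (limma, adjusted p = 0.324). The position of the knockout lesion relative to the probes, and whether the lentiviral transcript matches them, are not stated here, so every group name below is a label and no more: a "KO/mock array" is an array so labelled. Array medians lay between 5.00 and 5.07. The naive ES cell marker list (Pou5f1, Sox2, Nanog, Klf4, Zfp42, Tfcp2l1, Tbx3 and Esrrb) averaged 9.62 to 10.06 on every array. The primitive endoderm, feeder fibroblast and trophoblast lists averaged 5.12 to 5.72, though probe sets differ in response and such averages are not levels that can be set against each other. Detection calls were not used, so none of these markers can be called absent.

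The promoter sequences of the genes that differed most between groups are shown first, because Dnmt3b and Dnmt3l were higher and Tet2 lower on the KO/ERRb-wt arrays. Each is the 250 bases before a RefSeq start site (GRCm38.p6), read 5′ to 3′ on the strand of the gene. Capitals mark the GC box GGGCGG, the letters bound by Sp1-type factors, or its complement CCGCCC. Dnmt3b has 1 annotated start, on the plus strand, and the window is chr2:153649199-153649448. Dnmt3l has 3, on the plus strand, with windows chr10:78042037-78042286 (start 1), chr10:78049592-78049841 (start 2) and chr10:78055085-78055334 (start 3). Tet2 has 1, on the minus strand, with the window chr3:133544391-133544640.
Dnmt3b: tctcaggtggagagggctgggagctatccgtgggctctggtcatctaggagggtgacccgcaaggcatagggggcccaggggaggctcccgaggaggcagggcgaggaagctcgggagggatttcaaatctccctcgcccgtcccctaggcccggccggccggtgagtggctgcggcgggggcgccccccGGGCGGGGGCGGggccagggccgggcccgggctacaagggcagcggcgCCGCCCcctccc
Dnmt3l start 1: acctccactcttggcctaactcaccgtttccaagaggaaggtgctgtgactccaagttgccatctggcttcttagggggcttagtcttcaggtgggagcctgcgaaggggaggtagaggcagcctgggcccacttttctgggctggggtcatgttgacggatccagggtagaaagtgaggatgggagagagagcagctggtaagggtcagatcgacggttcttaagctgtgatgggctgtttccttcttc
Dnmt3l start 2: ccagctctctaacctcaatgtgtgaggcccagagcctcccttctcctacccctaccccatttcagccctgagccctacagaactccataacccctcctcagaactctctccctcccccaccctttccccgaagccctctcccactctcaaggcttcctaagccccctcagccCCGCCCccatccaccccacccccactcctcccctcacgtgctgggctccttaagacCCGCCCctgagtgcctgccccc
Dnmt3l start 3: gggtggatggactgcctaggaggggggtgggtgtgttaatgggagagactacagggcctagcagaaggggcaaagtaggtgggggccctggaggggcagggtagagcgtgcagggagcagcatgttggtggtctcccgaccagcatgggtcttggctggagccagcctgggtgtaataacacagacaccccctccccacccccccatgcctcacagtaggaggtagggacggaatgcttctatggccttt
Tet2: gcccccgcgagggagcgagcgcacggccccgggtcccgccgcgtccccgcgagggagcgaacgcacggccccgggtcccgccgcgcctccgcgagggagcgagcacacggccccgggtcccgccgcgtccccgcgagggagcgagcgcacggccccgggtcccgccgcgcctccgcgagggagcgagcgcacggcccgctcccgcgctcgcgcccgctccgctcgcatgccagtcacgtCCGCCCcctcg

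The windows differed widely in CG content. The Tet2 window held 51 CG dinucleotides and the Dnmt3b window 21, whereas the Dnmt3l windows held 5, 4 and 3, against a median of 6 over 32841 mouse windows of this length (quartiles 2 and 16). The Dnmt3b window held 3 GC boxes, 2 of them adjacent. Start 2 of Dnmt3l held 2, Tet2 held 1 and the other Dnmt3l windows held none. Over the 16 windows of all 9 genes, 11 windows of 8 genes held a GC box, as did 32.7% of all mouse windows. The estrogen-related receptor element TCAAGGTCA, and the shorter AAGGTCA that lies within it, were searched on both strands. Neither stood in any of the 16 windows, against 0.387% and 4.08% of all windows. At shares this low, finding none in 16 windows is an ordinary outcome. Sequence outside these windows was not searched, and binding of ERRb at these genes was not tested.

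Dnmt3l and Dnmt3b were ordered alike over the groups, highest on the KO/ERRb-wt arrays, intermediate on the KO/mock arrays and lowest on the WT/mock arrays. For both genes all 4 arrays of a group lay above all 4 of the next, with no overlap. Both were called in all 3 comparisons. They were the only members of the 8 called between KO/mock and WT/mock.

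Dnmt3l (probe set 17234763, chromosome 10) read 9.40 and 9.37 in clone 12-1 and 9.47 and 9.41 in clone 12-3 on the KO/ERRb-wt arrays. On the KO/mock arrays it read 8.73 and 8.67 in clone 8-3 and 9.01 and 8.90 in clone 8-4. WT/mock arrays gave 7.81 and 7.75 in clone 5-2 and 8.12 and 8.03 in clone 5-5. The arrays of each label thus formed separate bands, and within the KO/mock and WT/mock bands both arrays of one clone lay above both arrays of the other. KO/ERRb-wt exceeded WT/mock by 1.49 ± 0.10 (SE; 2.81-fold; limma, adjusted p = 5.5e-06), and KO/mock exceeded WT/mock by 0.90 ± 0.10 (1.86-fold; limma, adjusted p = 0.000448). Between KO/ERRb-wt and KO/mock the difference was 0.59 ± 0.10 (1.51-fold; limma, adjusted p = 0.00943). The clones of one label were 0.06 apart in KO/ERRb-wt, 0.25 in KO/mock and 0.30 in WT/mock, less than any group difference, and were not called (limma, adjusted p = 0.931, 0.589 and 0.451). The clone test set 2 arrays against 2 and called only 7 probe sets of 41345 in KO/ERRb-wt, 2 in KO/mock and 0 in WT/mock. For any gene, a missing call between clones is therefore no sign that they agree.

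Dnmt3b (probe set 17377963, chromosome 2) read 11.01 and 10.96 in clone 12-1 and 10.98 and 10.96 in clone 12-3 on the KO/ERRb-wt arrays. KO/mock arrays gave 10.22 and 10.09 in clone 8-3 and 10.55 and 10.68 in clone 8-4, the widest spread of the 3 groups. WT/mock arrays gave 9.66 and 9.62 in clone 5-2 and 9.70 and 9.92 in clone 5-5. The KO/ERRb-wt arrays stood close together, and in KO/mock both arrays of clone 8-4 lay above both of clone 8-3. KO/ERRb-wt exceeded WT/mock by 1.25 ± 0.12 (SE; 2.38-fold; limma, adjusted p = 4.68e-05). KO/mock exceeded WT/mock by 0.66 ± 0.12 (1.58-fold; limma, adjusted p = 0.00906), and KO/ERRb-wt exceeded KO/mock by 0.59 ± 0.12 (1.51-fold; limma, adjusted p = 0.0224). Clone 8-4 lay 0.45 ± 0.10 above clone 8-3 (limma, adjusted p = 0.453), a gap smaller than the group differences on either side of it.

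Dnmt3a (probe set 17273652, chromosome 12), the other de novo methyltransferase, was called in none of the comparisons. It ranged from 8.35 to 8.67 on the KO/ERRb-wt arrays, 8.46 to 8.67 on the KO/mock arrays and 8.28 to 8.44 on the WT/mock arrays. KO/mock arrays lay above all WT/mock arrays without passing the test (0.20, 95% interval 0.03 to 0.38; limma, adjusted p = 0.224). KO/ERRb-wt differed from WT/mock by 0.12 (interval -0.06 to 0.29; limma, adjusted p = 0.387) and from KO/mock by -0.09 (interval -0.26 to 0.09; limma, adjusted p = 0.612). Both intervals against WT/mock end below the smallest Dnmt3b difference from WT/mock, 0.66.

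**Figure D1:**
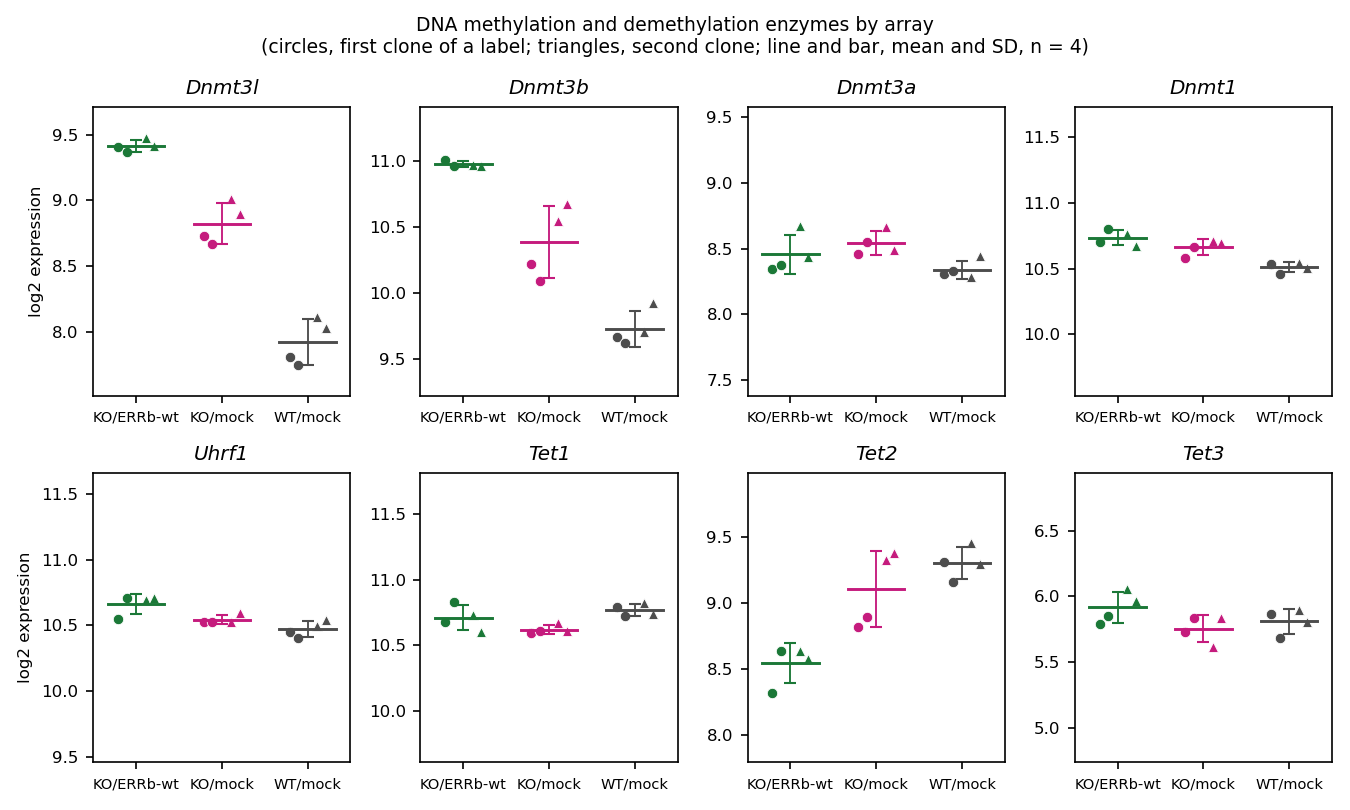
Log2 expression of the 8 measured genes on each of the 12 arrays, by label (x axis). Circles are the first clone of a label (12-1, 8-3, 5-2) and triangles the second (12-3, 8-4, 5-5), the line and bar are the mean and SD of 4 arrays, and all panels span the same number of log2 units. Dnmt3l and Dnmt3b step down over the 3 labels, Tet2 is lowest on the KO/ERRb-wt arrays, and the other genes differ less between labels.

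The maintenance genes differed by less. Dnmt1 and Uhrf1 were higher on the KO/ERRb-wt arrays than on the WT/mock arrays, each by under 1.2-fold, and neither was called in the other comparisons.

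Dnmt1 (probe set 17524535, chromosome 9) read 10.71 and 10.80 in clone 12-1 and 10.76 and 10.67 in clone 12-3 on the KO/ERRb-wt arrays. KO/mock arrays gave 10.58 and 10.66 in clone 8-3 and 10.71 and 10.70 in clone 8-4, and WT/mock arrays gave 10.53 and 10.46 in clone 5-2 and 10.54 and 10.51 in clone 5-5. The KO/ERRb-wt and KO/mock arrays lay above all WT/mock arrays, and they overlapped each other. KO/ERRb-wt exceeded WT/mock by 0.22 ± 0.05 (SE; 1.17-fold; limma, adjusted p = 0.016). KO/mock differed from WT/mock by 0.15 ± 0.05 (limma, adjusted p = 0.174), and KO/ERRb-wt from KO/mock by 0.07 (interval -0.05 to 0.19; limma, adjusted p = 0.525).

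Uhrf1 (probe set 17338747, chromosome 17) read 10.55 and 10.71 in clone 12-1 and 10.69 and 10.71 in clone 12-3 on the KO/ERRb-wt arrays. KO/mock arrays gave 10.53 and 10.53 in clone 8-3 and 10.53 and 10.59 in clone 8-4, and WT/mock arrays gave 10.45 and 10.41 in clone 5-2 and 10.49 and 10.54 in clone 5-5. The lowest KO/ERRb-wt array lay just above the highest WT/mock array. KO/ERRb-wt exceeded WT/mock by 0.19 ± 0.06 (SE; 1.14-fold; limma, adjusted p = 0.0409). The difference was 0.12 (interval -0.0039 to 0.25) between KO/ERRb-wt and KO/mock and 0.07 (interval -0.05 to 0.20) between KO/mock and WT/mock, neither of them called (limma, adjusted p = 0.282 and 0.642). Of 5 measured proliferation markers (Mki67, Top2a, Cdk1, Pcna and Mcm5), 1 was called between KO/ERRb-wt and WT/mock, Mcm5 at 0.19. There 20.8% of all genes were called, and 37.8% of genes averaging 6 or more. Leaving out any of 10 arrays ended the Mcm5 call. The summed log2 level of the list was 54.4 to 54.8 in KO/ERRb-wt, 54.4 to 54.6 in KO/mock and 54.1 to 54.5 in WT/mock. Its part in the Dnmt1 and Uhrf1 differences was not tested.

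Among the Tet genes, Tet2 was lower on the KO/ERRb-wt arrays than in both other groups, and Tet1 and Tet3 were called nowhere. Tet2 (probe set 17410492, chromosome 3) read 8.32 and 8.64 in clone 12-1 and 8.64 and 8.58 in clone 12-3 on the KO/ERRb-wt arrays. KO/mock arrays gave 8.82 and 8.90 in clone 8-3 and 9.33 and 9.38 in clone 8-4, and WT/mock arrays gave 9.31 and 9.16 in clone 5-2 and 9.46 and 9.30 in clone 5-5. All KO/ERRb-wt arrays lay below all others, and within KO/mock clone 8-4 lay in the WT/mock range whereas clone 8-3 lay between the groups. Tet2 fell by 0.76 ± 0.13 in KO/ERRb-wt against WT/mock (SE; 1.70-fold lower; limma, adjusted p = 0.00235). Against KO/mock it fell by 0.56 ± 0.13 (1.48-fold lower; limma, adjusted p = 0.0442). KO/mock differed from WT/mock by -0.20 (interval -0.49 to 0.09; limma, adjusted p = 0.539), and the KO/mock clones were 0.50 ± 0.12 apart (limma, adjusted p = 0.495).

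Tet1 (probe set 17241512, chromosome 10), with Tet2 the Tet gene best known from ES cells, ranged from 10.60 to 10.83 on the KO/ERRb-wt arrays, 10.60 to 10.67 on the KO/mock arrays and 10.72 to 10.82 on the WT/mock arrays. KO/mock lay below WT/mock on every array without passing the test (-0.15, interval -0.28 to -0.02; limma, adjusted p = 0.234). KO/ERRb-wt differed from KO/mock by 0.09 (interval -0.04 to 0.22) and from WT/mock by -0.06 (interval -0.19 to 0.07), so its range overlapped both. Tet3 (probe set 17468157, chromosome 6), known from the oocyte and neurons, ranged from 5.79 to 6.06 in KO/ERRb-wt, 5.62 to 5.83 in KO/mock and 5.68 to 5.90 in WT/mock. Its largest difference was 0.16 between KO/ERRb-wt and KO/mock (interval -0.01 to 0.34; limma, adjusted p = 0.303). Neither gene came near the size of the Tet2 difference in KO/ERRb-wt.

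**Figure D2:**
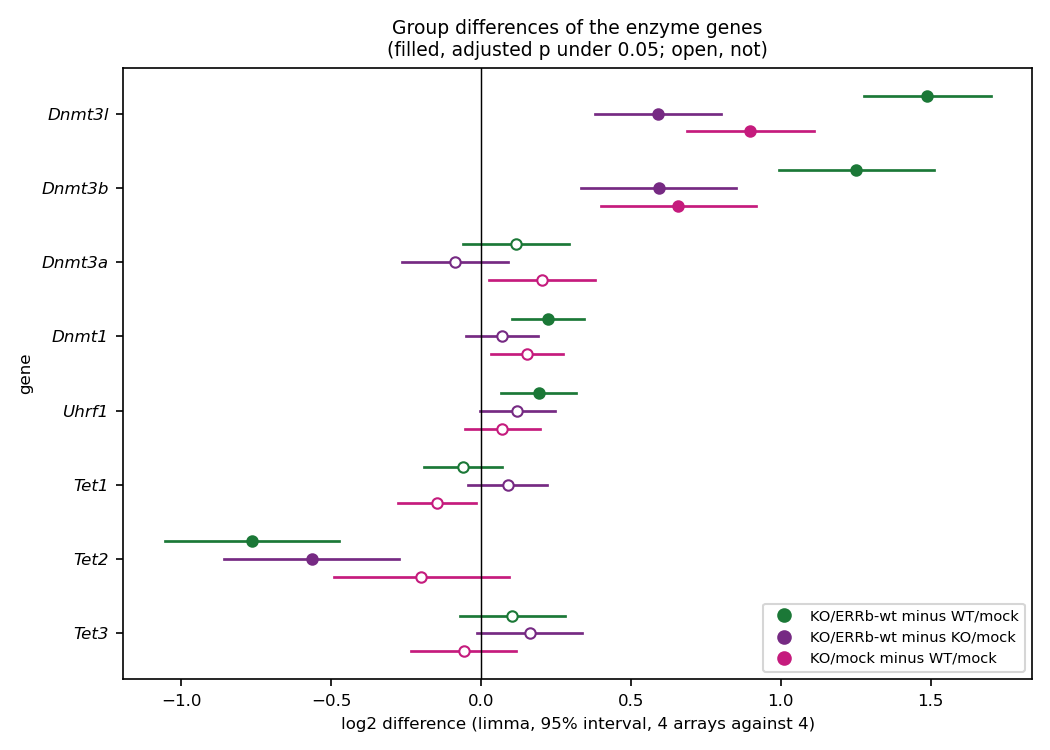
Log2 differences of the 8 measured genes in the 3 comparisons (x axis), with limma's 95% intervals from 4 arrays against 4. Filled points passed an adjusted p of 0.05. Dnmt3l and Dnmt3b lie right of 0 in every comparison, Tet2 lies left of 0 with filled points in both comparisons of KO/ERRb-wt, and Dnmt1 and Uhrf1 are filled between KO/ERRb-wt and WT/mock.

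Counted over the set, 5 of 8 genes were called between KO/ERRb-wt and WT/mock (4 higher, 1 lower), where 20.8% of all 22180 genes were called (8.82% higher and 12% lower). Between KO/ERRb-wt and KO/mock 3 of 8 were called (2 higher, 1 lower), beside 4.4% of all genes (1.24% higher and 3.17% lower). KO/mock against WT/mock gave 2 of 8, both higher, beside 5.58% (2.11% higher and 3.47% lower). Because the genes were chosen with earlier results of these data known, these counts describe the set and do not test it. Restricted to 9761 genes averaging 6 or more on the log2 scale, where 7 of these 8 genes lie, 37.8% were called between KO/ERRb-wt and WT/mock, 8.3% between KO/ERRb-wt and KO/mock and 10.8% between KO/mock and WT/mock. The median difference over the 8 genes was 0.15 between KO/ERRb-wt and WT/mock (0.03 over all genes), 0.10 between KO/ERRb-wt and KO/mock (0.02) and 0.11 between KO/mock and WT/mock (0.004). Groups did not overlap for 5 of the 8 genes between KO/ERRb-wt and WT/mock (28.5% of all genes), 3 between KO/ERRb-wt and KO/mock (17%) and 5 between KO/mock and WT/mock (15.9%). For a single gene, an exact two-sided permutation test of 4 arrays against 4 cannot go below p = 0.0286, the value of every member whose groups did not overlap, and that test treats the arrays of a clone as separate.

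How firmly the calls stood depended on the clones. With the arrays of a clone averaged, so that 2 clones stood against 2, Dnmt3l and Dnmt3b kept their calls between KO/ERRb-wt and WT/mock (limma, adjusted p = 0.012 and 0.0203). Tet2 missed there (0.0601), as did Dnmt1 (0.14) and Uhrf1 (0.201), and nothing was called in the other comparisons, where KO/ERRb-wt set against KO/mock gave 0.193 for Dnmt3l and 0.227 for Dnmt3b, and KO/mock set against WT/mock gave 0.1 and 0.202. Leaving out any single array ended none of the Dnmt3l calls, none of the Dnmt3b calls against WT/mock, and neither the Dnmt1 nor the Tet2 call of KO/ERRb-wt relative to WT/mock. The Dnmt3b call between KO/ERRb-wt and KO/mock ended without either array of clone 8-3 or of clone 12-3 (limma, adjusted p up to 0.065). Its Tet2 counterpart ended without any of 11 arrays, all but replicate 1 of clone 8-3 (up to 0.104), and the Uhrf1 call without any of 9, all but replicate 2 of clone 5-5, replicate 2 of clone 8-3 and replicate 1 of clone 12-1 (up to 0.109).

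Whole clones weighed more. Between KO/ERRb-wt and WT/mock, the Dnmt3l, Dnmt3b and Tet2 calls were kept without any 1 of the 6 clones (limma, adjusted p up to 0.000372, 0.00208 and 0.0233). The Dnmt1 call ended there without clone 5-2, 12-1 or 12-3 (up to 0.0978) and the Uhrf1 call without clone 5-2, 8-3, 8-4 or 12-3 (up to 0.248). For KO/ERRb-wt against KO/mock, Dnmt3l lost its call without clone 8-3 or 12-3 (up to 0.114), Dnmt3b without 8-3, 12-1 or 12-3 (up to 0.13) and Tet2 without any clone but 8-3 (up to 0.169). For KO/mock against WT/mock, Dnmt3l kept its call without any 1 clone (up to 0.0103), and Dnmt3b lost it without clone 5-2 or 8-4 (up to 0.126).

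**Figure D3:**
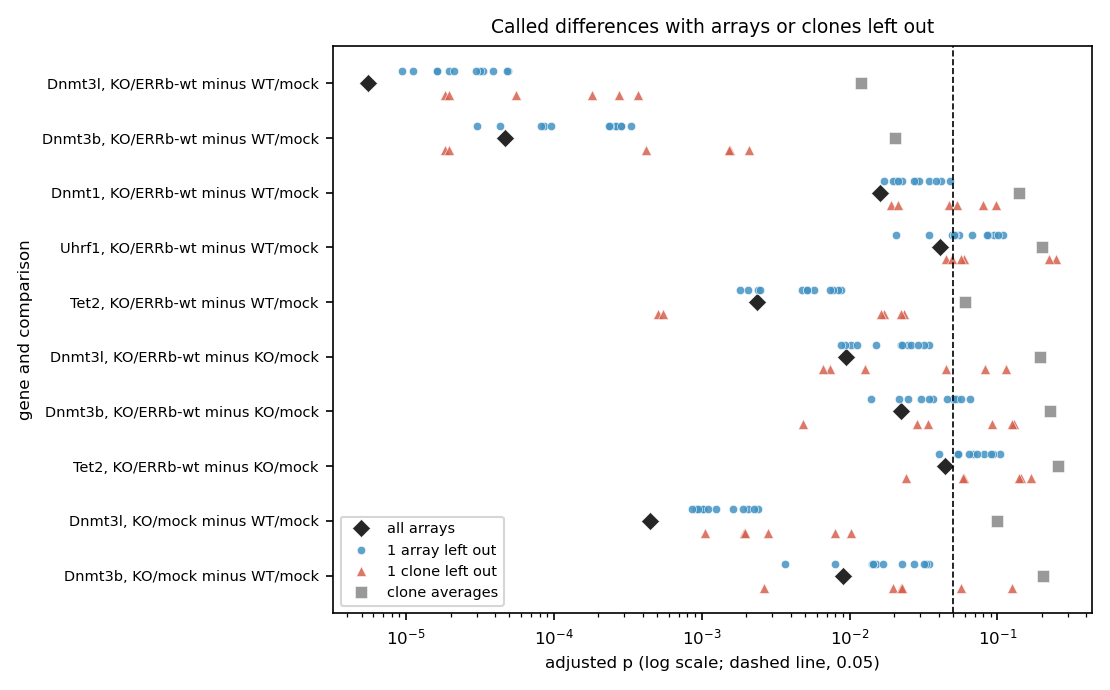
Adjusted p (x axis, log scale) of each called difference with all arrays (diamonds), with 1 array left out (circles), with 1 clone left out (triangles) and with clones averaged (squares). The dashed line is 0.05. All points of Dnmt3l and Dnmt3b between KO/ERRb-wt and WT/mock lie left of it, whereas the squares of the other 8 calls lie right of it.

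Next to the enzymes, 69 further genes of the pathway were listed by role, also with earlier results of these data known. Of these, 58 had a probe set of their own. Between KO/ERRb-wt and WT/mock 24 of the 58 were called (8 higher, 16 lower). Between KO/ERRb-wt and KO/mock 7 were called (1 higher, 6 lower), and between KO/mock and WT/mock 10 (3 higher, 7 lower). These are 41.4%, 12.1% and 17.2% of the 58, beside the 20.8%, 4.4% and 5.58% of all genes given above. Of the 58, 49 averaged 6 or more on the log2 scale, and among these 44.9%, 14.3% and 20.4% were called, beside 37.8%, 8.3% and 10.8% of all genes at that level. The median difference over the 58 genes was -0.07, -0.03 and -0.03.

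Of 7 measured regulators and partners of the Dnmt and Tet genes, 4 were called between KO/ERRb-wt and WT/mock (20.8% of all genes), 3 between KO/ERRb-wt and KO/mock (4.4%) and 2 between KO/mock and WT/mock (5.58%). Of genes averaging 6 or more, where all of the 7 but Cxxc4 lie, 37.8%, 8.3% and 10.8% were called in these comparisons. Prdm14, which in mouse ES cells represses Dnmt3b and Dnmt3l, read 6.70, 7.00, 6.98 and 7.08 on the KO/ERRb-wt arrays, 7.42, 7.48, 7.18 and 7.27 on the KO/mock arrays, and 7.69, 7.76, 7.85 and 7.79 on the WT/mock arrays. The 3 groups did not overlap, in the order opposite to Dnmt3b and Dnmt3l. The part of Prdm14 or of the other regulators in the enzyme differences was not tested. Prdm14 fell by 0.83 ± 0.09 in KO/ERRb-wt against WT/mock (SE; limma, adjusted p = 0.000136), by 0.40 against KO/mock (0.0423) and by 0.43 in KO/mock against WT/mock (0.0238). Dppa3, which binds Uhrf1 and limits maintenance methylation, was ordered like Dnmt3b and Dnmt3l: it read 9.17 to 9.62 in KO/ERRb-wt, 8.60 to 9.08 in KO/mock and 7.87 to 8.25 in WT/mock. It rose by 1.37 ± 0.13 in KO/ERRb-wt against WT/mock (SE; 2.58-fold; limma, adjusted p = 4.23e-05), by 0.59 against KO/mock (0.0304) and by 0.78 in KO/mock against WT/mock (0.00534). Nanog, a pluripotency factor that binds Tet1 and Tet2, fell by 0.40 in KO/ERRb-wt against WT/mock and by 0.25 against KO/mock (limma, adjusted p = 0.000195 and 0.0196). Sall4, a zinc finger factor, rose by 0.37 in KO/ERRb-wt against WT/mock (limma, adjusted p = 0.00276).

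The genes listed as holding or reading methylation moved in both directions. Between KO/ERRb-wt and WT/mock, 3 of 6 repressive chromatin partners, 1 of 6 maintenance partners and 2 of 6 genes listed as readers were called. Beside them stand 20.8% of all genes and 37.8% of genes averaging 6 or more. In KO/mock against WT/mock the counts were 1, 1 and 2 (5.58% and 10.8%). In KO/ERRb-wt against KO/mock they were 1, 0 and 0 (4.4% and 8.3%). Zfp57, which keeps methylation at imprinted regions, read 9.76 to 9.99 in KO/ERRb-wt, 10.15 to 10.27 in KO/mock and 10.63 to 10.69 in WT/mock. It fell by 0.83 ± 0.06 in KO/ERRb-wt against WT/mock (SE; 1.78-fold lower; limma, adjusted p = 1.09e-05), by 0.39 against KO/mock (0.00813) and by 0.44 in KO/mock against WT/mock (0.00209), with no overlap between groups. Its corepressor Trim28 and the H3K9 methyltransferase gene Ehmt1 rose by 0.26 and 0.33 in KO/ERRb-wt against WT/mock (limma, adjusted p = 0.0132 and 0.00743), so 3 of the 6 measured repressive chromatin partners were called there. Uhrf2, the paralogue of Uhrf1, was the only 1 of 6 maintenance partners called. It rose by 0.67 ± 0.08 in KO/ERRb-wt against WT/mock (SE; limma, adjusted p = 0.000259) and by 0.40 in KO/mock against WT/mock (0.02), and Hells, Cdca7, Zbtb24, Pcna and Usp7 were called in no comparison. Of the 6 measured genes listed as readers, Mbd3, a NuRD subunit listed by family, rose by 0.40 in KO/ERRb-wt and 0.26 in KO/mock, each against WT/mock (limma, adjusted p = 0.00112 and 0.0416). Its methyl-CpG-binding relative Mbd2 fell by 0.21 and 0.19 in the same comparisons (limma, adjusted p = 0.0129 and 0.0475).

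On the removal side, 12 genes of base excision repair and deamination were measured, and 6 were called between KO/ERRb-wt and WT/mock, 5 of them lower, where 20.8% of all genes were called and 12% were called lower. Of genes averaging 6 or more on the log2 scale, where these 12 lie, 37.8% were called. The cytidine deaminase gene Apobec1 ranged from 6.58 to 6.81 in KO/ERRb-wt, 6.63 to 7.19 in KO/mock and 7.38 to 8.22 in WT/mock. It fell by 1.07 ± 0.18 in KO/ERRb-wt and by 0.89 ± 0.18 in KO/mock, each against WT/mock (SE; limma, adjusted p = 0.00169 and 0.0158). The stress gene Gadd45b fell by 0.63 and 0.80 in these comparisons (limma, adjusted p = 0.0152 and 0.013), so both genes were lower on the arrays of both KO labels. The glycosylase gene Mbd4 fell by 0.35 in KO/ERRb-wt against WT/mock and by 0.28 against KO/mock (limma, adjusted p = 0.00193 and 0.0263). In KO/ERRb-wt against WT/mock the glycosylase gene Neil1 fell by 0.32 and the ligase gene Lig3 rose by 0.30 (limma, adjusted p = 0.00516 and 0.0078). A further glycosylase gene, Neil3, was the sixth, chosen for naming after its value was seen, and fell by 0.50 (limma, adjusted p = 0.0187).

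Of the genes of cofactor supply, 2 of 6 for methyl donors and 2 of 6 for alpha-ketoglutarate were called between KO/ERRb-wt and WT/mock. That is 33.3% each, beside 20.8% of all genes and 37.8% of genes averaging 6 or more, where all of these lie. Of the 6 measured genes for methyl donor supply, Shmt1, a serine hydroxymethyltransferase, rose by 0.36 and Mtr, methionine synthase, fell by 0.28 in KO/ERRb-wt against WT/mock (limma, adjusted p = 0.00277 and 0.0139). Of the 6 for alpha-ketoglutarate, the Tet cosubstrate, Idh2, mitochondrial isocitrate dehydrogenase, fell by 0.64 in KO/ERRb-wt against WT/mock and by 0.47 against KO/mock (limma, adjusted p = 0.00132 and 0.0325). Idh3a, a subunit of the NAD-linked enzyme, fell by 0.23 in KO/ERRb-wt against WT/mock (limma, adjusted p = 0.0202). In KO/mock against WT/mock neither list had a called gene.

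The last list held 10 germline and placental genes known to be silenced by promoter methylation, and 9 were measured. All 4 called between KO/ERRb-wt and WT/mock were lower, where 20.8% of all genes were called, 12% lower and 8.82% higher. Rhox5, an X-linked homeobox gene, read 6.60, 6.52, 6.75 and 6.89 on the KO/ERRb-wt arrays, 7.11, 7.05, 7.33 and 7.45 on the KO/mock arrays, and 8.22, 8.56, 8.87 and 8.84 on the WT/mock arrays. The groups did not overlap, in the order opposite to Dnmt3b and Dnmt3l. Methylation of Rhox5 was not measured, and the part of the enzymes in its order was not tested. Rhox5 fell by 1.93 ± 0.15 in KO/ERRb-wt against WT/mock (SE; 3.81-fold lower; limma, adjusted p = 1.22e-05) and by 1.38 in KO/mock against WT/mock (limma, adjusted p = 0.000448). KO/ERRb-wt differed from KO/mock by -0.55 without a call. The germ cell RNA helicase gene Ddx4 ranged from 7.12 to 7.58 in KO/ERRb-wt, 7.72 to 7.97 in KO/mock and 8.24 to 8.56 in WT/mock. Ddx4 fell by 1.07 in KO/ERRb-wt against WT/mock (limma, adjusted p = 7.37e-05), by 0.55 against KO/mock (0.0211) and by 0.52 in KO/mock against WT/mock (0.021). Stk31 and Mael, both germ cell genes, fell by 0.71 each in KO/ERRb-wt against WT/mock (limma, adjusted p = 0.00307 and 0.00635). Stk31 averaged 5.51 in KO/ERRb-wt and 6.22 in WT/mock, and Mael 5.23 and 5.94. The other 5 genes (Dazl, Sycp1, Asz1, Tex101 and Tdrd1) were called in no comparison. Of these, all but Dazl averaged between 3.43 and 4.67 in each group. That is below every array median, where a fall would be hard to see. Over the 9 genes the summed log2 level was 47.0 to 48.0 in KO/ERRb-wt, 48.4 to 49.3 in KO/mock and 51.6 to 52.6 in WT/mock. This sum includes the 4 called genes and does not show that all 9 moved. The median difference over the 9 was -0.20 in KO/ERRb-wt against WT/mock.

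Many of these calls hung on 1 clone or on few arrays. With clones averaged, 10 of the 24 calls between KO/ERRb-wt and WT/mock were kept (Uhrf2, Zfp57, Mbd3, Dppa3, Prdm14, Nanog, Rhox5, Ddx4, Stk31 and Mael), and the other 14 ended, as did all 7 between KO/ERRb-wt and KO/mock and all 10 between KO/mock and WT/mock. Leaving out 1 clone ended 10 of the 24 (Ehmt1, Trim28, Mbd2, Gadd45b, Neil1, Lig3, Neil3, Mtr, Idh3a and Mael), all 7, and 8 of the 10, all but Zfp57 and Rhox5. Between KO/ERRb-wt and WT/mock, leaving out 1 array ended, of the pathway genes named, the calls of Idh3a (without replicate 1 of clone 5-2, replicate 2 of 12-1 or replicate 2 of 12-3) and Neil3 (without either array of 5-2 or 12-3). In KO/mock against WT/mock it ended those of Uhrf2 (either array of 5-2, replicate 1 of 5-5, replicate 2 of 8-4), Apobec1 (replicate 1 of 5-2, either of 8-4), Prdm14 (either of 5-2, replicate 1 of 5-5, either of 8-4), Ddx4 (either of 5-2, replicate 1 of 8-4), Mbd2 (any array) and Mbd3 (any but replicate 2 of 12-1 and replicate 1 of 12-3). In KO/ERRb-wt against KO/mock it ended those of Nanog (either array of 8-3), Ddx4 (either of 8-3, replicate 2 of 8-4, replicate 2 of 12-3), Idh2 (either of 8-3, 12-1 or 12-3), Mbd4 (either of 8-3, replicate 2 of 8-4, replicate 2 of 12-1, either of 12-3), Dppa3 (replicate 1 of 8-3, either of 8-4, either of 12-1, replicate 2 of 12-3) and Prdm14 (any but replicate 1 of 8-4).

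**Figure D4:**
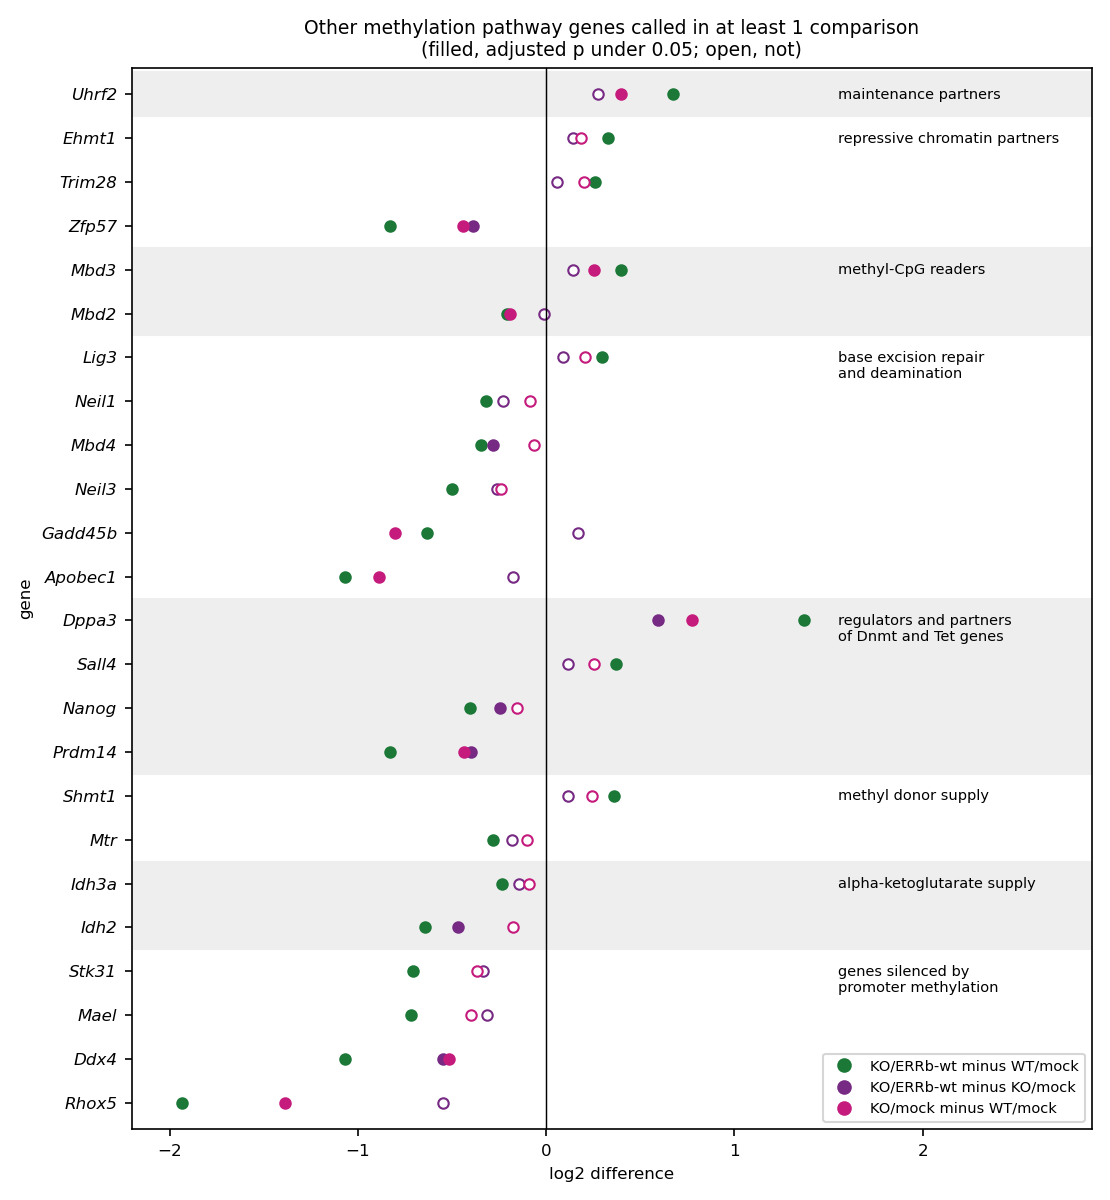
Log2 differences (x axis) in the 3 comparisons of the 24 listed pathway genes called in at least 1 of them, grouped by role. Filled points passed an adjusted p of 0.05. Prdm14, Zfp57 and Ddx4 lie left of 0 and Dppa3 right of it with filled points in all 3 comparisons. The 4 methylation-silenced genes shown, of 9 measured, lie left of 0.

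Some markers of the naive state, and Lef1 among those of the formative state, differed over the same arrays. Of 8 naive ES cell markers, 5 were called between KO/ERRb-wt and WT/mock (20.8% of all genes), 5 between KO/ERRb-wt and KO/mock (4.4%) and 2 between KO/mock and WT/mock (5.58%), all lower, with Esrrb among the 5 in both comparisons of KO/ERRb-wt. Of genes averaging 6 or more, where these 8 lie, 37.8%, 8.3% and 10.8% were called in these comparisons. Leaving out 1 of the 12 arrays ended the calls of Nanog, Klf4 and Tfcp2l1 between KO/ERRb-wt and KO/mock in 2, 7 and 11 cases. With clones averaged, all naive marker calls between KO/ERRb-wt and KO/mock ended. So did those of Klf4 and Tbx3 between KO/mock and WT/mock (limma, adjusted p = 0.113 and 0.153). Between KO/ERRb-wt and WT/mock the Tfcp2l1 call ended (0.155), and Nanog, Klf4, Tbx3 and Esrrb kept theirs (up to 0.0394). The T-box factor gene Tbx3 fell by 1.21 and Klf4 by 0.78 in KO/ERRb-wt against WT/mock (limma, adjusted p = 1.46e-06 and 2.59e-05), whereas Sox2 and Zfp42 differed by -0.07 and 0.04, and they and Pou5f1 were called in no comparison. The summed log2 level of the 8 was 77.0 to 77.4 in KO/ERRb-wt, 79.1 to 80.1 in KO/mock and 80.0 to 80.5 in WT/mock. That sum includes Esrrb itself, which differed by -0.93 between KO/ERRb-wt and KO/mock and by -0.65 between KO/ERRb-wt and WT/mock. It does not show that all 8 moved. Of 5 measured formative and primed markers, 2 were called between KO/ERRb-wt and WT/mock (20.8% of all genes) and 2 between KO/mock and WT/mock (5.58%). These were Lef1 and Dnmt3b itself. Between KO/ERRb-wt and KO/mock 1 was called (4.4%), Dnmt3b. Fgf5, Otx2 and Pou3f1 were called in no comparison. Without Dnmt3b, the summed level of the other 4 was 24.8 to 25.9 in KO/ERRb-wt, 24.5 to 25.3 in KO/mock and 23.3 to 24.4 in WT/mock. Lef1, a Wnt pathway factor, rose by 0.90 in KO/ERRb-wt and by 0.96 in KO/mock, each against WT/mock (limma, adjusted p = 0.000941 and 0.00234). With clones averaged, the KO/ERRb-wt call of Lef1 was kept (limma, adjusted p = 0.049) and the KO/mock call was not (0.139). The part of these markers in the enzyme differences was not tested.

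Of markers of other cell types, 1 per list was called between KO/ERRb-wt and WT/mock, where 20.8% of all genes were called. The 6 primitive endoderm markers summed to 31.4 to 31.9 in KO/ERRb-wt, 30.7 to 31.3 in KO/mock and 31.9 to 32.2 in WT/mock, with Gata4 called lower in KO/ERRb-wt and in KO/mock, each against WT/mock, and Dab2 higher in KO/ERRb-wt than in KO/mock. The 6 feeder fibroblast markers summed to 32.0 to 32.9 in KO/ERRb-wt, 31.0 to 32.0 in KO/mock and 31.1 to 31.9 in WT/mock, and Thy1 was called higher in KO/ERRb-wt than in WT/mock. The 5 trophoblast markers summed to 27.8 to 28.6 in KO/ERRb-wt, 27.4 to 28.0 in KO/mock and 25.9 to 27.6 in WT/mock, and Cdx2 was called higher in KO/ERRb-wt than in WT/mock. Leaving out 1 of the 12 arrays ended the calls of Dab2, Thy1 and Cdx2 in 10, 4 and 1 cases and that of Gata4 in none. Their part in the enzyme differences was not tested.

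Over the 12 arrays, Dnmt3b and Dnmt3l followed each other most closely of all pairs of the 8 genes (Pearson r = 0.98). With the group means removed their r was 0.71, below those of Dnmt1 with Tet1 (0.82) and Dnmt1 with Tet2 (0.73). Tet2 ran against both over all arrays (r = -0.71 with Dnmt3b and -0.73 with Dnmt3l) but with both inside the groups (0.70 and 0.71), where clone 8-4 exceeded clone 8-3 for all 3 genes. These points share 3 groups and 6 clones and are a description only. Out of 9240 named genes averaging 6 or more on the log2 scale, the patterns most like Dnmt3l were those of Poldip3, Rcc2 and Eif3b (r = 0.99, 0.99 and 0.98). Those most like Dnmt3b were Dab1, Rexo2 and Eef1d (r = 0.99 each). Tet2 was most like Nipa1, Zmym3 and Ncam1 (r = 0.93, 0.93 and 0.92). Dnmt1 was most like Ercc3, Mthfd1l and Get4 (r = 0.97 each), and Uhrf1 most like Ddx23, Taok2 and Grwd1 (r = 0.96, 0.96 and 0.95).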

How the data were processed

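The deposited table held log2 expression values of 41345 probe sets on 12 arrays, which the authors produced by RMA (Affymetrix Expression Console), as the submitters' processing notes record without versions. RMA subtracts background, equalises the distributions of the arrays and summarises probes, so a shift common to most genes is removed. Detection calls were not used here, and the number of arrays limits the precision. Gene symbols came from the platform annotation, which listed 1 symbol for 23521 probe sets, several for 1814 and none for 16010. A gene was read from its one-symbol probe set with the highest mean. Chromosomes and promoter sequences came from RefSeq (GRCm38.p6). The build behind the array annotation was not given in these sources.

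Groups came from the labels. All arrays entered 1 limma model (limma 3.58.1, statmod 1.5.0, R 4.3.3) of 3 groups, clones forming a random block (estimated correlation 0.0286), two-sided, with Benjamini-Hochberg adjustment over all probe sets and a call at 0.05. The correlation was 1 value shared by all probe sets, and the block had little effect. Without it 6728, 1499 and 1742 probe sets were called for KO/ERRb-wt against WT/mock, KO/ERRb-wt against KO/mock and KO/mock against WT/mock. With it these were 6460, 1329 and 1602. The SE of a gene whose clones lie further apart, as Tet2 and Dnmt3b in KO/mock, may therefore be too small. Clones were compared in a model of 6 clones. The pipeline was tested on simulated data. Promoters and figures were made with Python 3.11.15 and matplotlib 3.10.9.

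The genes named are the 9 enzymes, Esrrb, up to 4 called genes per list and comparison by adjusted p, and the 3 genes most like each called enzyme gene. The members and lists were chosen with earlier results of these data known. The fit was repeated without the clone block, on clone averages, with a block for replicate number, on only the groups compared, with median centring, with quantile normalization, with a trended and robust prior, with array weights, without dim probe sets (mean log2 under 5), without chromosome 14, and without each array and each clone.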

Additional observations from a re-analysis of the deposited data

Results flagged for a closer look

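In 27 sets of 4 arrays of 1 gene and label (8 enzyme genes and Esrrb), 3 held an array set apart from the other 3 by a gap above Dixon's critical share of the group's range. Chance flags about 1 in 20 such groups. Uhrf1 read 10.55 on replicate 1 of clone 12-1 labelled KO/ERRb-wt, where the other 3 arrays lay between 10.69 and 10.71. Among the arrays labelled KO/mock, Uhrf1 read 10.59 on replicate 2 of clone 8-4, where the others read 10.53. Tet1 read 10.67 on replicate 1 of clone 8-4 labelled KO/mock, where the others lay between 10.60 and 10.61. Leaving out the Uhrf1 array of clone 12-1 did not end the call of Uhrf1 in KO/ERRb-wt against WT/mock, and leaving out that of clone 8-4 did (limma, adjusted p up to 0.109 over single arrays).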

How the results depend on the processing

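With clones averaged, 2 enzyme genes were called between KO/ERRb-wt and WT/mock, 0 between KO/ERRb-wt and KO/mock and 0 between KO/mock and WT/mock (5, 3 and 2 with all arrays), and 2251, 0 and 10 probe sets against 6460, 1329 and 1602. This fit has 6 values in place of 12. Leaving out single arrays gave 4 to 5 called enzyme genes for KO/ERRb-wt against WT/mock (4822 to 6526 probe sets), 1 to 2 for KO/ERRb-wt against KO/mock (544 to 1399) and always 2 for KO/mock against WT/mock (888 to 1841). Without clone 5-2, 3 were called between KO/ERRb-wt and WT/mock and 1 between KO/mock and WT/mock; without clone 12-3, 3 between KO/ERRb-wt and WT/mock and 0 between KO/ERRb-wt and KO/mock. Without clone 8-3 or 12-1, 1 was called between KO/ERRb-wt and KO/mock, and without clone 8-4, 1 between KO/mock and WT/mock. Probe sets numbered 3245 without 5-2 and 3931 without 12-3 in KO/ERRb-wt against WT/mock, 145, 761 and 333 without 8-3, 12-1 and 12-3 in KO/ERRb-wt against KO/mock; in KO/mock against WT/mock they numbered 531 without 5-2 and 560 without 8-4. Fitting only the groups compared gave 1 call between KO/ERRb-wt and KO/mock (777 probe sets).

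The replicate block gave 4 called enzyme genes between KO/ERRb-wt and WT/mock, 2 between KO/ERRb-wt and KO/mock and 2 between KO/mock and WT/mock (6011, 973 and 1365 probe sets); it ended the Uhrf1 call (limma, adjusted p = 0.0521) and the Tet2 call between KO/ERRb-wt and KO/mock (0.0656) and no other call of the enzymes. The Uhrf1 call also ended when only the groups compared were fitted (0.0849), with median centring (0.0831) and with array weights (0.0541). Tet2 between KO/ERRb-wt and KO/mock also ended with only those groups (0.0881) and with quantile normalization (0.0664), and Dnmt3b there with only those groups (0.0529). Deviations of same-numbered arrays correlated at 0.06, 0.12 and 0.07 over all probe sets. Such values cannot tell whether a shared replicate number marks a shared batch. Of 672 checks of single enzyme differences, 610 kept direction and side of the threshold, 59 lost a call, 1 gained one (Dnmt1 in KO/mock against WT/mock with a trended and robust prior, adjusted p = 0.0447) and 2 changed sign, none of them a called difference: Tet2 in KO/mock against WT/mock was 0.049 without clone 8-3, and Dnmt3a in KO/ERRb-wt against KO/mock was 0.00966 without clone 12-1. Called differences of other genes gave 2294 checks, of which 416 lost the call and none changed sign. Averaging a gene's probe sets was not run, since each enzyme gene had 1. The cause of these changes was not tested.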
